A study of Mus musculus with 38 samples.

Results

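The 10 genes described here carry ions, water and butyrate across the colonic epithelium: Aqp8, Slc26a3, Slc26a2, Car1, Car4, Slc9a3, Scnn1b, Scnn1g, Slc5a8 and Slc16a1. They were chosen by symbol, and all 10 were matched to Ensembl identifiers among the 55416 genes of 3 deposited tables of read counts. RNA had been sequenced from mouse intestinal tract in a series on black rice feeding in colorectal cancer models, and the values below are CPM, the reads of a gene scaled to its library's total. In the Apc set there were 6 libraries from black rice, 6 from control diet and 6 from WT mice, with 3 coded F and 3 coded M in each arm. In the AOM set the arms were black rice and control diet, 3 libraries per code, and 1 of its black rice F libraries was left out, so 11 were used. The third set compared 4 libraries labelled black rice with 4 labelled control, without a code, and the name of its table carried the letters FMT. The labels spelled out none of Apc, AOM and FMT, and gave no strain, allele, dose, age or feeding time, no diet for WT, and no statement that libraries came from separate animals. The p-values below therefore measure the spread between these libraries, which may in part be technical.

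The left-out library, AOM black rice F replicate 3, held 166015 CPM of the liver gene Alb, against at most 80.6 CPM in the 11 others, and had 5.37 M reads. The other libraries held 37.9 to 91.1 M reads. Xist lay between 333 and 2266 CPM in the 15 libraries coded F and at most at 0.848 CPM in the 15 coded M. In the 8 libraries of the third set, which carry no code, it lay between 0.0549 and 0.416 CPM. The Apc transcript itself had 109 to 201 CPM in the black rice arm of the Apc set, 96.5 to 184 CPM in the control arm and 76.8 to 178 CPM in the WT arm, and with no allele given it could not check the labels. Epithelial identity genes, a list of 16 such as Epcam and Vil1, were all detected in every library used. In bulk tissue, fewer cells of a type and less RNA per cell cannot be told apart.

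Surface colonocytes recover salt and water from the gut contents. Sodium enters in exchange for protons through NHE3 (Slc9a3) or, in the distal colon under aldosterone, through the epithelial sodium channel ENaC, whose beta and gamma subunits are Scnn1b and Scnn1g. Chloride enters in exchange for bicarbonate through DRA (Slc26a3), and the carbonic anhydrases Car1, in the cytosol, and Car4, on the apical membrane, supply the bicarbonate and protons. Slc26a2 carries sulfate, Aqp8 is a water channel, and SMCT1 (Slc5a8) and MCT1 (Slc16a1) take up butyrate, the main fuel of colonocytes.

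No transport gene passed the threshold, which was 0.05 on p-values from edgeR's quasi-likelihood test after Benjamini-Hochberg adjustment across every gene tested, in any of 17 comparisons of diet, WT, code and model. Between 0 and 3 of the genes had an unadjusted p under 0.05 in a comparison. limma-voom passed none of them either, and DESeq2 passed Scnn1b in 2 comparisons. The fold changes were not all small. Slc26a3 had a log2 fold change of 1.21 for black rice in the Apc set, and Scnn1b and Scnn1g had -2.03 and -3.17 among its M-coded libraries, with adjusted p-values of 0.278 or more. The transport genes varied widely from library to library within arms, in groups of genes that went up and down together, and part of that variation went with Hoxb13, a marker of the distal end of the colon.

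Per kilobase of exon, Car1 stood first in all 3 sets and the ENaC subunits last. In the 18 Apc libraries the median level was 898 CPM per kb for Car1, 379 for Car4, 127 for Slc26a3, 111 for Aqp8, 51.1 for Slc26a2, 43.7 for Slc16a1, 41.6 for Slc5a8 and 34.1 for Slc9a3. Scnn1b followed at 2.93 and Scnn1g at 1.11 CPM per kb. Neighbours in this order overlapped in their ranges over libraries. The third set had the same first 2 and last 2 genes, but Slc9a3 had rank 5 there, at a median of 116 CPM per kb, and Slc26a2 rank 7, at 51.7 CPM per kb.

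The genes differed most in how steady they were. Car1 ran from 149.8 to 12179.9 CPM over the Apc libraries, an 81.3-fold range, and from 129.7 to 20771 CPM over the AOM libraries, a 160.1-fold range. Scnn1g ran from 0.293 to 18.4 CPM in the Apc set, a 62.8-fold range. The butyrate carriers were the steadiest, with a 2.92-fold range for Slc5a8, from 103.7 to 303 CPM, and a 2.59-fold range for Slc16a1, from 149 to 387 CPM. Slc26a2, the sulfate carrier, ranged 3.03-fold and Car4 5.01-fold, whereas Aqp8, Slc26a3 and Slc9a3 each ranged between 14.4-fold and 17.9-fold.

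**Figure D1:**
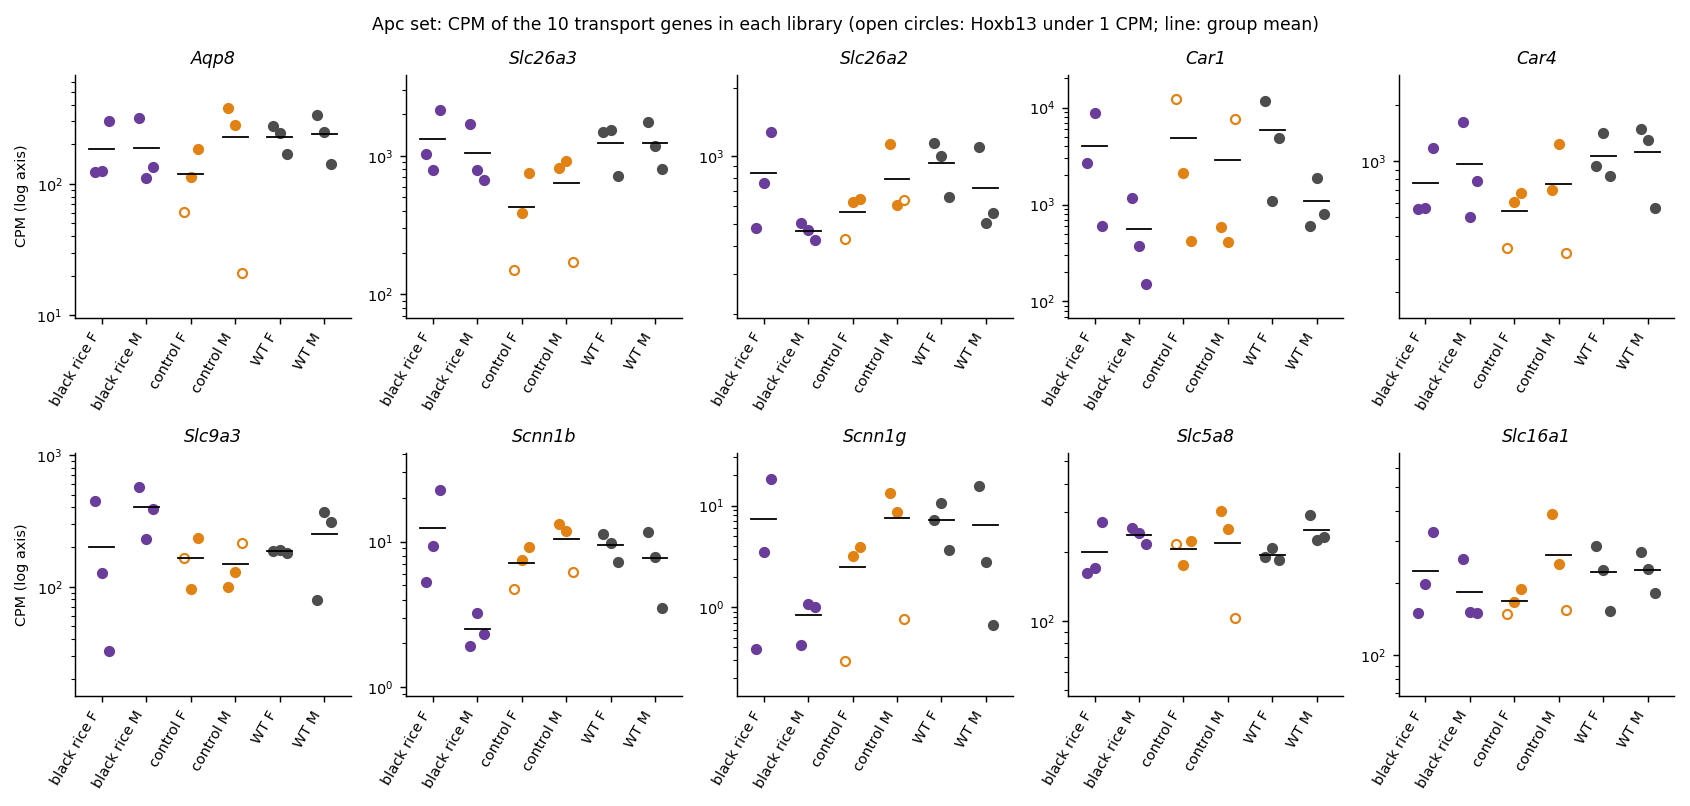
CPM (log axis) of each transport gene in the 18 Apc libraries, by arm and code; points are libraries, lines are group means, and open circles are the libraries with Hoxb13 under 1 CPM. The black rice M libraries sit between 1.92 and 3.26 CPM of Scnn1b, below all 3 control M libraries, and both open circles are at the bottom of Slc26a3.

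In the 3 sets, 6 libraries had Hoxb13, a homeobox gene of the distal colon, under 1 CPM. They were Apc control F replicate 1 (0.439 CPM), Apc control M replicate 3 (0.761 CPM), AOM black rice M replicates 1 and 2 (0.0427 and 0.0512 CPM), black rice replicate 1 of the third set (0.226 CPM) and control replicate 4 of the third set (0.464 CPM). The median was 125 CPM in the Apc set, 34.8 CPM in the AOM set and 6.33 CPM in the third set, where no library was above 22.9 CPM. These libraries were among the highest in Car1 of their sets: 12179.9 CPM in Apc control F replicate 1, 7699.5 CPM in Apc control M replicate 3, 16114.5 and 15288 CPM in the AOM pair, and 17048 and 15034 CPM in the pair from the third set. Their ranks in Car1 were 1 and 4 of 18, 2 and 3 of 11, and 1 and 2 of 8. Car1 was also high in libraries rich in Hoxb13, such as Apc WT F replicate 1 with 11710.2 CPM of Car1 and 162 CPM of Hoxb13.

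Slc26a3 and Aqp8 went the other way in the Apc set. The libraries with the lowest Slc26a3 were the same pair, at 149 CPM in control F replicate 1 and 169 CPM in control M replicate 3, and the 16 others had 387 to 2149 CPM. Aqp8 had 60.6 and 21.1 CPM in that pair, and at least 111 CPM in all 16 other Apc libraries. In the third set Aqp8 had 122 CPM in black rice replicate 1 and 101 CPM in control replicate 4, and 308 to 662 CPM in the 6 others. The AOM pair did not stand apart in this way. It had 22.6 and 105 CPM of Aqp8, beside 31.4 to 222 CPM in the 9 others, and 356 and 476 CPM of Slc26a3, beside 144 to 805 CPM in the others. Both Apc libraries are control libraries, and both AOM libraries are black rice M libraries. In these sets low Hoxb13 and diet arm therefore partly coincide. The part of position in the diet comparisons was not tested beyond the fits given below.

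**Figure D2:**
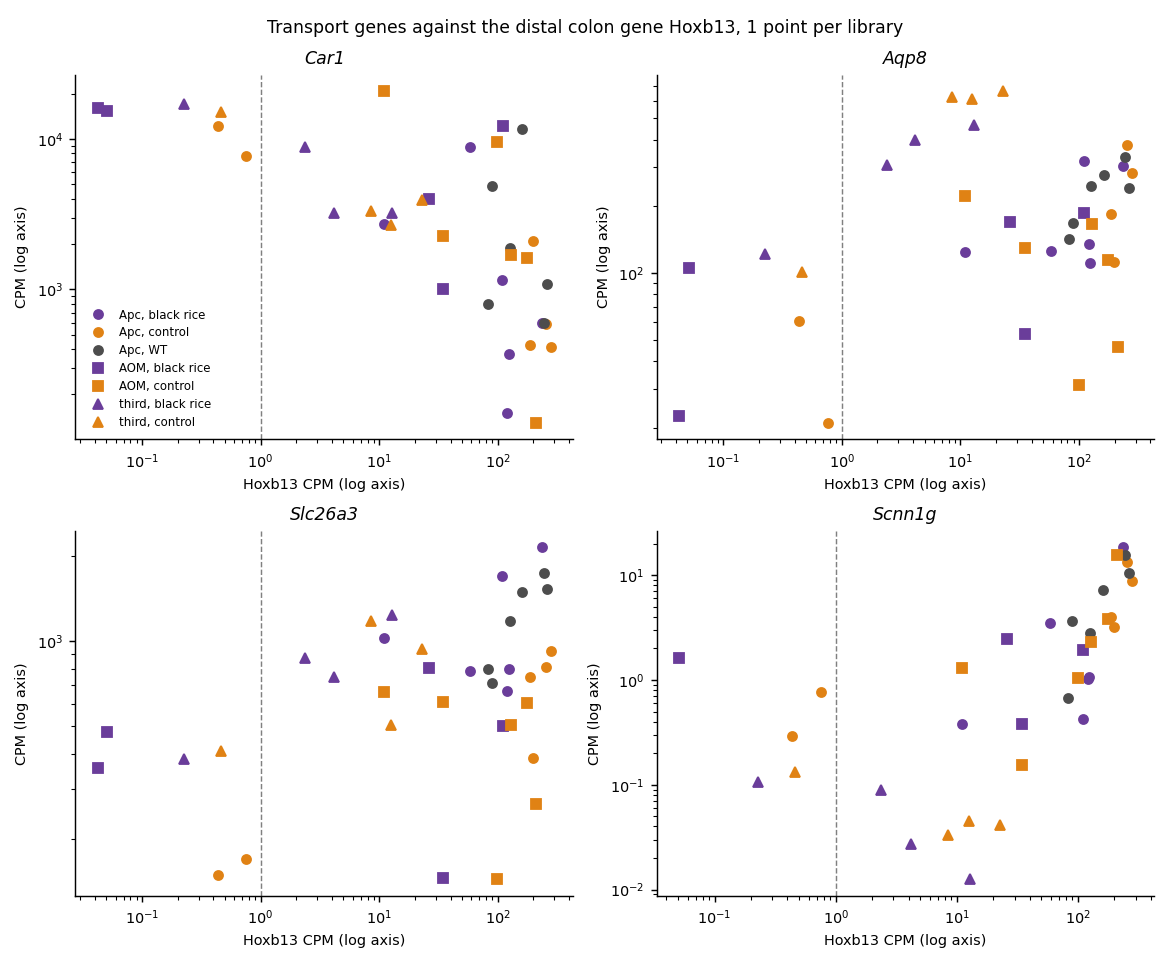
CPM of Car1, Aqp8, Slc26a3 and Scnn1g against Hoxb13 (both axes log), 1 point per library in the 3 sets; the dashed line marks 1 CPM of Hoxb13, and 1 AOM library with 0 reads of Scnn1g is not drawn. The 6 libraries left of the line have between 7699.5 and 17048 CPM of Car1, and the highest Scnn1g values lie at the right end.

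Over the 18 Apc libraries, 3 genes of bicarbonate and water transport varied together. On log2(CPM + 0.5) values, Pearson's r was 0.86 between Aqp8 and Slc26a3, 0.85 between Aqp8 and Car4, and 0.84 between Slc26a3 and Car4. Without the 2 libraries farthest from the median of the x value these were 0.70, 0.79 and 0.73. A second group joined the ENaC subunits and the sulfate carrier, with r of 0.87 between Scnn1b and Scnn1g, 0.87 between Slc26a2 and Scnn1g, and 0.82 between Slc26a2 and Scnn1b. Slc9a3, the other route of sodium entry, ran against this second group, with r of -0.80 to Scnn1b, -0.75 to Scnn1g and -0.72 to Slc26a2. For the second group and Slc9a3, r without the 2 farthest libraries is not given. Apc black rice F replicate 3 was extreme in each of those genes, as given below. All these coefficients describe 18 libraries that share arms, depth and tissue makeup, and no test was made of them.

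Library by library, the second group and Slc9a3 had opposite extremes. Apc black rice F replicate 3 was the highest of 18 in Scnn1b (22.7 CPM), Scnn1g (18.4 CPM) and Slc26a2 (1278 CPM), and the lowest in Slc9a3 (32.7 CPM). Apc black rice M replicate 1 was the lowest in Scnn1b (1.92 CPM) and the highest in Slc9a3 (575 CPM). The same 2 libraries had 141 and 6.62 CPM of Hoxd13, another distal homeobox gene, and 9.29 and 112 CPM of Cdx2, an intestinal homeobox gene. The F library was the highest of 18 in Hoxd13 and the lowest in Cdx2. The M library was extreme in neither, beside Apc medians of 8.61 CPM of Hoxd13 and 90.8 CPM of Cdx2. Over the Apc libraries Scnn1g had r of -0.84 with Cdx2 and 0.79 with Hoxd13, genes chosen after their values were seen. The mean log2 level of the distal list, 7 of 8 genes matched, had r of 0.80 with Scnn1g, 0.73 with Slc26a2 and -0.66 with Slc9a3.

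The AOM libraries held some of these pairs and not others. With 11 libraries, r was 0.77 between Aqp8 and Slc26a3 and 0.74 between Scnn1b and Scnn1g, but 0.25 between Aqp8 and Car4, 0.25 between Slc26a2 and Scnn1g, and 0.27 between Slc9a3 and Scnn1b. AOM control M replicate 3 was the extreme library of that set, with the highest Scnn1b (27.2 CPM) and Scnn1g (15.5 CPM), the lowest Car1 (129.7 CPM), and 102 CPM of Hoxd13 and 21.0 CPM of Cdx2. The next highest Scnn1g was 3.85 CPM, in AOM control F replicate 1, and r between the ENaC subunits without the extreme library is not given. No coefficients are given for the third set, whose 8 libraries split into the pair low in Hoxb13 and the 6 others.

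**Figure D3:**
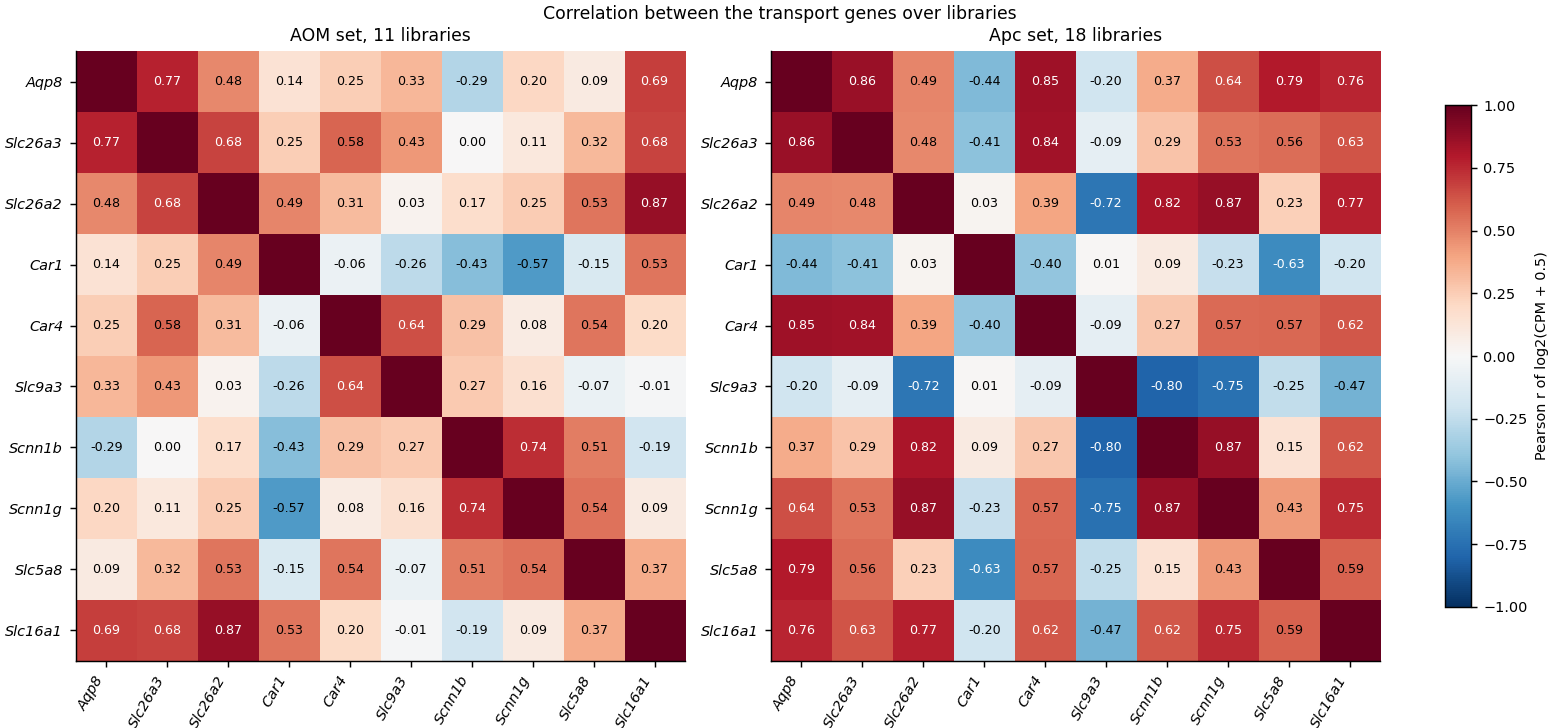
Pearson correlation of log2(CPM + 0.5) between the transport genes over libraries, in the AOM set (left, 11 libraries) and the Apc set (right, 18 libraries). In the Apc set Aqp8, Slc26a3 and Car4 form one block of r from 0.84 to 0.86, and Slc26a2, Scnn1b and Scnn1g another, from 0.82 to 0.87.

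Promoters are shown for genes that varied together, because those genes went up and down in common between libraries. Sequences from RefSeq's promoter table (GRCm38.p6) were examined for 8 of the 10 genes. Car1 and Slc26a2 were not among the 8, although Slc26a2 varied with Scnn1b and Scnn1g. Their absence here does not show that the table lacks them. Each line below gives the 250 bases before the annotated start, 5′ to 3′, with matches to the searched motifs in capitals.
Aqp8, chr7:123462044-123462293, + strand: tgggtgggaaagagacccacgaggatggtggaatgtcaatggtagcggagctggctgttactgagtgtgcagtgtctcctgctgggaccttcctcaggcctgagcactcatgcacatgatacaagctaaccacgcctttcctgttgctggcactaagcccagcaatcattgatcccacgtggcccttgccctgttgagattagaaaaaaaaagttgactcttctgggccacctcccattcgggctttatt
Slc26a3, chr12:31437969-31438218, + strand: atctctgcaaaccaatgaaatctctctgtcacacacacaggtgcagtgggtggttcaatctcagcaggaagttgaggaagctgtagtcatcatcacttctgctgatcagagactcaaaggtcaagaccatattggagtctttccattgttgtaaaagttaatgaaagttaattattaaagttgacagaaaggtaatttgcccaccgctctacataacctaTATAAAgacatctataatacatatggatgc
Car4, chr11:84957504-84957753, + strand: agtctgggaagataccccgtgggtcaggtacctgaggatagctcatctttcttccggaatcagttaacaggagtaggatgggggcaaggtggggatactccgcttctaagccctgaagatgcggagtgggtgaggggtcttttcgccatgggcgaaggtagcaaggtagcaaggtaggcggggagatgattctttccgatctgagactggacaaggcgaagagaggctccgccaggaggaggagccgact
Scnn1b, chr7:121864788-121865037, + strand: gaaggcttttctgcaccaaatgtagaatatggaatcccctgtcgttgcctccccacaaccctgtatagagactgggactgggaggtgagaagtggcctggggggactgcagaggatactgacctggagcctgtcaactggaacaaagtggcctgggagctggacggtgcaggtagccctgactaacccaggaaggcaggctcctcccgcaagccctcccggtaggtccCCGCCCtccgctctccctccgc
Scnn1g, chr7:121734229-121734478, + strand: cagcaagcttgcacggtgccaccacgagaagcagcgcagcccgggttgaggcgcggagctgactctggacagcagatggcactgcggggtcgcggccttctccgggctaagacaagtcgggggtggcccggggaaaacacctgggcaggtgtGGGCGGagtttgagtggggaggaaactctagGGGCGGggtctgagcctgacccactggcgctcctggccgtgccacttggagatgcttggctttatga
The motifs searched on both strands were the core promoter box TATAAA, the GC box GGGCGG, the CDX motif TTTATNG, the HNF4 motif CAAAGTCCA and the steroid receptor motif TGTTCT, of which the first and the CDX motif can overlap on opposite strands. Slc26a3 held a TATAAA at bases 30 to 25 before its start, a motif in 12.4% of the 32851 promoters of the table, and it was the only one of the 8 with it. GC boxes, in 32.7% of all promoters, were found in Scnn1b (1), Scnn1g (2), Slc9a3 (3), Slc5a8 (3) and Slc16a1 (1), and none was in these windows of Aqp8, Slc26a3 and Car4. The other 3 motifs, in 9.81%, 0.384% and 16.1% of all promoters, had no match in the 8 windows. The GC content was 38.8% in Slc26a3, 52.4% in Aqp8 and 56.4% in Car4, and lay between 58.8% and 76.4% in the 5 others. Scnn1b and Scnn1g are neighbours, with starts 130559 bases apart on chromosome 7.

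In the Apc set the first question is what black rice did relative to the control diet. Slc26a3, the chloride and bicarbonate exchanger, had 1024, 785 and 2149 CPM in black rice F libraries and 1700.1, 796 and 669 CPM in black rice M libraries. It had 149, 387 and 746 CPM in control F libraries and 813, 922 and 169 CPM in control M libraries. Every black rice library lay above the mean of the control libraries with its code, and the arms overlapped. The control M mean includes replicate 3, low in Hoxb13, at 169 CPM. Black rice M replicates 2 and 3, at 796 and 669 CPM, lay below control M replicates 1 and 2, at 813 and 922 CPM. The means were 1187 ± 599.8 CPM under black rice and 531 ± 339 CPM under control diet (SD, n = 6 each), a log2 fold change of 1.21 (SE 0.46, adjusted p = 0.40 with edgeR). It was 1.63 (SE 0.66) among F libraries, where the groups did not overlap. Among M libraries it was 0.78 (SE 0.64), and lay between 0.19 and 1.23 over the alternatives. Here and below, groups of 3 libraries that do not overlap are only described, since the share of all genes without overlap is not given. Without the 2 control libraries low in Hoxb13, the Slc26a3 fold change over both codes was 0.78 (SE 0.38, adjusted p = 0.444). With the distal list as a covariate it was 1.25 (SE 0.39, adjusted p = 0.25). Smooth muscle genes, a list of 10, moved with it: their summed level was 3411 to 6575.5 CPM under black rice and 2724 to 3977 CPM under control diet, and no marker was at 0. Immune genes, a list of 12 with none at 0, moved the other way, with 367 to 1017 CPM under black rice and 775 to 2139 CPM under control diet and a median log2 fold change of -0.78. Over 28 alternatives, which include the smooth muscle list as a covariate, the Slc26a3 fold change lay between 0.78 and 1.55. The part of the smooth muscle list was not tested further, and that of the immune list was not tested.

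Among the 21624 genes tested in that comparison, 0.0139% passed the threshold and 10.3% had an unadjusted p under 0.05. Slc26a3 was the 1 transport gene of 10 in the latter class. Slc9a3 averaged 299.95 ± 206 CPM under black rice and 156 ± 58.0 CPM under control diet (SD, n = 6 each), with a log2 fold change of 0.90 (SE 0.51, adjusted p = 0.56), and of -0.029 with the smooth muscle list as a covariate. Car4 had 0.44 (SE 0.38), with 864 ± 440.2 CPM under black rice and 646 ± 331 CPM under control diet. The ENaC subunits pointed lower, Scnn1b by -0.62 (SE 0.34) and Scnn1g by -0.79 (SE 0.87). Aqp8, Slc26a2, Slc5a8 and Slc16a1 had fold changes between -0.08 and 0.21. The butyrate carriers overlapped throughout, with 163 to 270.5 CPM of Slc5a8 on black rice and 103.7 to 303 CPM under control diet, and 149.7 to 325 CPM of Slc16a1 on black rice and 149 to 387 CPM under control diet. Car1 was -1.31 (SE 0.94), and 0.99 (SE 0.82) once the control libraries low in Hoxb13 were left out, so its direction rested on them.

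For the ENaC subunits the F and M libraries are given apart. Scnn1b had 1.92, 3.26 and 2.33 CPM in black rice M libraries and 13.2, 11.8 and 6.21 CPM in control M libraries, with no overlap. In F libraries it had 5.25, 9.39 and 22.7 CPM under black rice and 4.70, 7.50 and 9.13 CPM under control diet, with wide overlap. The log2 fold change among M libraries was -2.03 (SE 0.50, adjusted p = 0.278 with edgeR), and the F difference minus the M difference was 2.82 (SE 0.70, adjusted p = 0.303). DESeq2 passed both, with adjusted p-values of 0.0110 and 0.0115, in comparisons where it passed 0.698% and 0.61% of all genes. limma-voom gave adjusted p-values of 0.386 and 0.423.

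Scnn1g followed its partner at a lower level. It had 0.420, 1.07 and 1.01 CPM in black rice M libraries and 13.4, 8.73 and 0.761 CPM in control M libraries, where the third control library, low in Hoxb13, lay inside the black rice range. The log2 fold change was -3.17 (SE 1.33, adjusted p = 0.525), and -3.70 (SE 1.21, adjusted p = 0.35) without that library. Slc26a2 had 504, 469 and 423 CPM in black rice M libraries and 1133, 607 and 639 CPM in control M libraries, again without overlap, with a log2 fold change of -0.71 (SE 0.35, adjusted p = 0.597). Slc9a3 lay the other way, with 575, 230.2 and 391 CPM in black rice M libraries, against 99.4, 129 and 214 CPM in control M libraries, a log2 fold change of 1.497 (SE 0.73, adjusted p = 0.597). The interaction was 4.75 (SE 1.81) for Scnn1g and 1.26 (SE 0.49) for Slc26a2, with adjusted p-values of 0.50 and 0.51.

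Across all genes, 0.0324% passed in the M comparison and 8.54% had an unadjusted p under 0.05, against 2 of 10 transport genes, both lower. In the F comparison 0% passed and 10.2% had an unadjusted p under 0.05, against 1 of 10, and in the interaction 0% and 8.89%, against 3 of 10. Goblet cell genes, a list of 9 with none at 0, moved with the M result: they summed to 36316 to 67442 CPM in black rice M libraries and 9077 to 19654 CPM in control M libraries, without overlap. Clca1, a secreted goblet cell protein, accounted for 27583 ± 13129.6 CPM in black rice M libraries and 3294 ± 3088 CPM in control M libraries (SD, n = 3 each). Over the 18 libraries the mean log2 level of the goblet cell list had r of -0.70 with Scnn1b and 0.72 with Slc9a3. The distal list and liver genes differed too among M libraries. The distal list, 7 genes with at most 1 at 0 in a library, summed to 191 to 201 CPM in black rice M libraries and to 437, 365 and 19.8 CPM in control M libraries, with a median log2 fold change of -1.53 over its genes. With its mean level as a covariate, Scnn1b had -1.94 (adjusted p = 0.065) and Scnn1g -2.47 (adjusted p = 0.208) among M libraries. Hepatocyte genes, a list of 10 with none at 0, summed to 76.7 to 94.8 CPM in black rice M libraries and 100.04 to 231 CPM in control M libraries. The parts of the goblet cell and hepatocyte lists in the result were not tested.

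Genes of the aldosterone and glucocorticoid pathway ran beside the ENaC subunits. The mean of that list of 16 had r of 0.94 with Slc26a2, 0.87 with Scnn1g and 0.85 with Scnn1b over the Apc libraries. Sgk1, the kinase through which aldosterone keeps ENaC at the membrane, averaged 99.99 ± 27.0 CPM in black rice M libraries and 322 ± 32.8 CPM in control M libraries (SD, n = 3 each). Its log2 fold change was -1.63 (SE 0.32), with an adjusted p of 0.112 that did not pass with edgeR and lay between 0.00036, with DESeq2, and 0.535 over the alternatives. It passed without the low-count filter, with an adjusted p of 0.0478, and without WT M replicate 1, with 0.0419. Hsd11b2, the enzyme that shields the mineralocorticoid receptor from glucocorticoid, averaged 134 ± 30.1 CPM under black rice and 291 ± 91.0 CPM under control diet among M libraries, a log2 fold change of -1.10 (SE 0.29, adjusted p = 0.306 with edgeR and 0.0422 with DESeq2). The interaction for Sgk1 was 2.18 (SE 0.44, adjusted p = 0.175 with edgeR and 0.00154 with DESeq2). In the edgeR fit of all libraries no gene of this or the other pathway lists passed in the M comparison or in the interaction. Of the other lists, those of smallest p among M libraries were Clca1 and the phosphate carrier Slc34a2, Hadh and Slc16a7, and Klf5 and Maf.

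Over both codes of the Apc set, the other lists held no gene past the threshold for black rice against control diet. Counts at an unadjusted p under 0.05 are given beside the 10.3% of all genes at that level. Of 38 genes in other colonic ion and water transport, 4 were higher and 3 lower, led by the aquaporin Aqp3, with -1.17 (SE 0.31) at 0.105 ± 0.031 CPM under black rice and 0.243 ± 0.049 CPM under control diet, and the potassium channel Kcnma1, with 0.45 (SE 0.13). Of 18 tested genes of butyrate transport, sensing and first oxidation, 1 was higher and 1 lower: the monocarboxylate carrier Slc16a7, with 0.84 (SE 0.28), and Hadh, an enzyme of short-chain fatty acid oxidation, with -0.40 (SE 0.15). Of 16 aldosterone and glucocorticoid genes, 2 were higher and 2 lower, led by Hsd11b2, with -0.67 (SE 0.20), and the glucocorticoid-responsive clock gene Per1, with 0.50 (SE 0.16). Of 14 transcription factors of colonocyte maturation, 1 was higher and 1 lower, Hnf4g with 0.32 (SE 0.12) and Cdx1 with -0.35 (SE 0.14). Their adjusted p-values lay between 0.232 and 0.425. The list medians were -0.01, -0.05, 0.03 and -0.16, beside -0.01 over all genes tested.

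The second question of the Apc set is how the control diet libraries compared with WT. Slc26a3 averaged 531 ± 339 CPM in control libraries and 1244 ± 419 CPM in WT libraries (SD, n = 6 each), a log2 fold change of -1.31 (SE 0.46, adjusted p = 0.999 with edgeR). WT libraries held 1489, 1535 and 713 CPM under code F and 1744, 1183 and 799 CPM under code M, so all 6 control libraries lay below the WT mean of their code, and the arms overlapped. The fold change was -1.63 (SE 0.66) among F and -1.001 (SE 0.65) among M libraries, and -0.89 (SE 0.39) over both codes without the libraries low in Hoxb13. Car4, the apical carbonic anhydrase, averaged 646 ± 331 CPM in control libraries and 1086 ± 366 CPM in WT libraries, a log2 fold change of -0.83 (SE 0.39, adjusted p = 0.999), and -0.54 (SE 0.39) without those libraries. Slc26a2 was lower among F libraries by -0.78 (SE 0.35), with 431, 626 and 646 CPM in control and 1138, 1001 and 657 CPM in WT libraries. Car4 did not overlap among F libraries either, with 341, 601 and 678 CPM in control and 941, 1407 and 828 CPM in WT libraries.

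Of the 10 genes, 9 had a negative fold change against WT, with a median of -0.44, beside 0.00 over all genes tested. Among F libraries 9 were negative, with a median of -0.63, and among M libraries 5 were negative and 5 positive, with a median of -0.02. The share of all genes past the threshold was 0% over both codes, 0% among F and 0% among M libraries, and 4.25%, 4.04% and 3.33% had an unadjusted p under 0.05, against 2, 2 and 0 of the transport genes. DESeq2 passed 24 genes over both codes, none of them a transport gene. Black rice libraries did not differ past the threshold from WT either, where 0.0139% of all genes passed and 8.17% had an unadjusted p under 0.05, against 0 of 10. Slc26a3 averaged 1187 ± 599.8 CPM in black rice and 1244 ± 419 CPM in WT libraries. These comparisons share the control or WT libraries, and their fold changes are not independent of each other.

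In the lists around them, control against WT passed no gene. The anion exchanger Slc4a1 had 2.99 (SE 0.79) at 0.401 ± 0.40 CPM in control and 0.0369 ± 0.0392 CPM in WT libraries, and the basolateral sodium, potassium and chloride cotransporter Slc12a2 had -0.48 (SE 0.17), with 277 ± 74.4 CPM in control and 373 ± 96.6 CPM in WT libraries. Per1 had -0.60 (SE 0.16) and Tsc22d3, a glucocorticoid-induced gene, -0.38 (SE 0.18). In the butyrate list Emb averaged 8.02 ± 1.37 CPM in control and 6.19 ± 1.001 CPM in WT libraries, and Hcar2 1.01 ± 0.19 and 0.76 ± 0.26 CPM in the same order. Among transcription factors Hnf4g averaged 25.4 ± 2.89 and 27.9 ± 5.88 CPM, again control before WT.

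The codes F and M, compared over all arms of the Apc set, gave 0.074% of genes past the threshold and 15.1% with an unadjusted p under 0.05, against 1 of 10 transport genes. That gene was Car1, with 4942 ± 4749 CPM in F and 1517 ± 2375 CPM in M libraries (SD, n = 9 each), a log2 fold change of 1.89 (SE 0.78, adjusted p = 0.284 with edgeR). The largest M value, 7699.5 CPM, was again control M replicate 3, and the 8 other M libraries lay between 149.8 and 1879 CPM. Slc5a8 was lower in F libraries, with 201 ± 34.0 CPM in F and 236 ± 57.1 CPM in M libraries, a log2 fold change of -0.35 (SE 0.17, adjusted p = 0.343), and -0.50 (SE 0.12, adjusted p = 0.103) without the libraries low in Hoxb13. Scnn1b had 0.55 (SE 0.28, adjusted p = 0.366).

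The AOM set asked the diet question in another model. Over both codes, the smallest unadjusted p of a transport gene between black rice and control diet was 0.227. Slc26a3 averaged 457 ± 240 CPM under black rice (n = 5) and 465 ± 211 CPM under control diet (n = 6, SD), and Aqp8 108 ± 71.6 and 118 ± 72.0 CPM in the same order. Scnn1g had 0.384 and 1.94 CPM in black rice F libraries and 0, 1.61 and 2.45 CPM in black rice M libraries, against 3.85, 1.05 and 2.31 CPM in control F libraries and 1.29, 0.154 and 15.5 CPM in control M libraries. Its log2 fold change was -1.44 (SE 1.12), and the 0 reads in black rice M replicate 1 allow up to 0.064 CPM, for counting error only. Scnn1b was -1.10 (SE 0.72) among F libraries, with 3.57 and 4.87 CPM under black rice and 13.2, 8.54 and 5.21 CPM under control diet. Car4 was 0.58 (SE 0.47) among M libraries, with 487, 305 and 1104 CPM under black rice and 244, 671 and 395 CPM under control diet. Black rice M replicates 1 and 2, at 487 and 305 CPM, were low in Hoxb13.

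The share of all 21895 genes past the threshold was 0% for diet over both codes, 0% among F, 0% among M libraries and 0% for the interaction. With edgeR 3.06%, 3.27%, 13.8% and 14% of genes had an unadjusted p under 0.05 in the same order, against 0 of 10 transport genes each time, and DESeq2 passed 13, 3, 255 and 175 genes, none of them a transport gene. Code F against M passed 0.0365% of genes, with 8.44% at an unadjusted p under 0.05. Slc9a3 was the 1 transport gene there, with 129.7 ± 47.1 CPM in F (n = 5) and 254 ± 253 CPM in M libraries (n = 6, SD), a log2 fold change of -1.07 (SE 0.48, adjusted p = 0.589), and of 0.47 with the epithelial list as a covariate. The M mean rested on black rice M replicate 3, at 762 CPM, while the 5 other M libraries lay between 99.7 and 228 CPM. Slc26a3 had -0.65 (SE 0.46). No list gene passed for diet. The 2 of smallest p in each list were Pdzk1 and Slc4a2, Hcar2 and Slc16a5, Tsc22d3 and Fxyd4, and Elf3 and Prdm1, where the bicarbonate exchanger Slc4a2 averaged 156 ± 64.6 CPM under black rice and 96.1 ± 28.1 CPM under control diet.

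**Figure D4:**
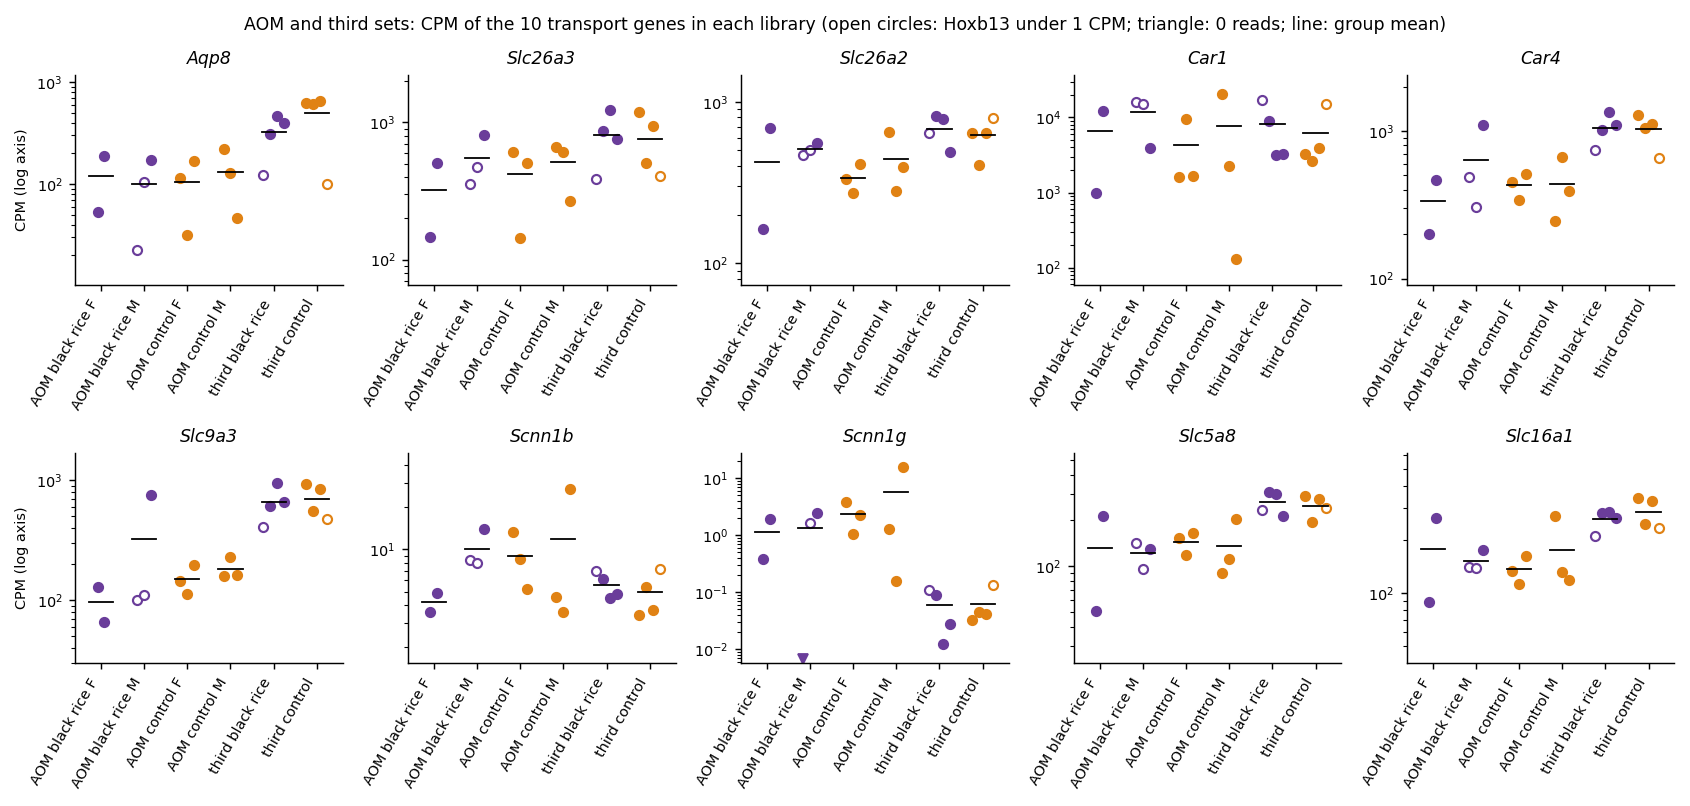
CPM (log axis) of each transport gene in the 11 AOM and 8 libraries of the third set by arm and code; points are libraries, lines are group means, open circles are libraries with Hoxb13 under 1 CPM, and the triangle marks 0 reads. In the third set, 3 control libraries lie between 613 and 662 CPM of Aqp8, above the 4 black rice libraries.

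In the third set 9 of the 10 genes had enough reads to be tested, since Scnn1g had 1 to 10 reads per library, or 0.0126 to 0.133 CPM, below every Apc library. Scnn1b, its partner, had 3.39 to 7.24 CPM there, inside the range of the Apc set. Aqp8 had 122, 308, 467 and 399.9 CPM in black rice libraries and 620.3, 613, 662 and 101 CPM in control libraries. All black rice values lay below the control mean, and the control library at 101 CPM made the arms overlap. The log2 fold change was -0.70 (SE 0.56, adjusted p = 0.773 with edgeR), and -0.77 (SE 0.17, adjusted p = 0.322) without the 1 library in each arm that was low in Hoxb13. The 8 other tested genes had fold changes between -0.20 and 0.37 and unadjusted p-values of 0.255 or more. Slc9a3, high in this set, had 411, 616, 943 and 665 CPM under black rice and 938, 556, 854 and 474 CPM under control diet. Car1 and Slc26a3 overlapped in the same way, with 3196 to 17048 and 384 to 1237 CPM under black rice and 2659 to 15034 and 409 to 1179 CPM under control diet.

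Of the 20831 genes tested in the third set 0% passed and 7.94% had an unadjusted p under 0.05, against 0 of 9 transport genes, while DESeq2 passed 136 genes and none of the 9. Epithelial identity genes differed in sum between the arms, with 15418 to 17292 CPM under black rice and 17808 to 19250.3 CPM under control diet, no marker at 0 and no overlap. Over 17 alternatives, which include the epithelial list as a covariate, the Aqp8 fold change lay between -1.22 and -0.43. The part of that list in the Aqp8 values was not tested further. No gene of the pathway lists passed with edgeR. Sgk1 averaged 154 ± 32.6 CPM under black rice and 254 ± 76.3 CPM under control diet (SD, n = 4 each), a log2 fold change of -0.77 (SE 0.23, adjusted p = 0.515) that was 0.0083 with the epithelial list as a covariate, and Elf3, an epithelial transcription factor, 307 ± 17.3 and 396 ± 31.7 CPM in the same order, -0.43 (SE 0.10, adjusted p = 0.493 with edgeR and 0.00518 with DESeq2). The others of smallest p were Slc4a2, Slc16a3, Slc16a4, Zbtb16 and Cdx2.

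**Figure D5:**
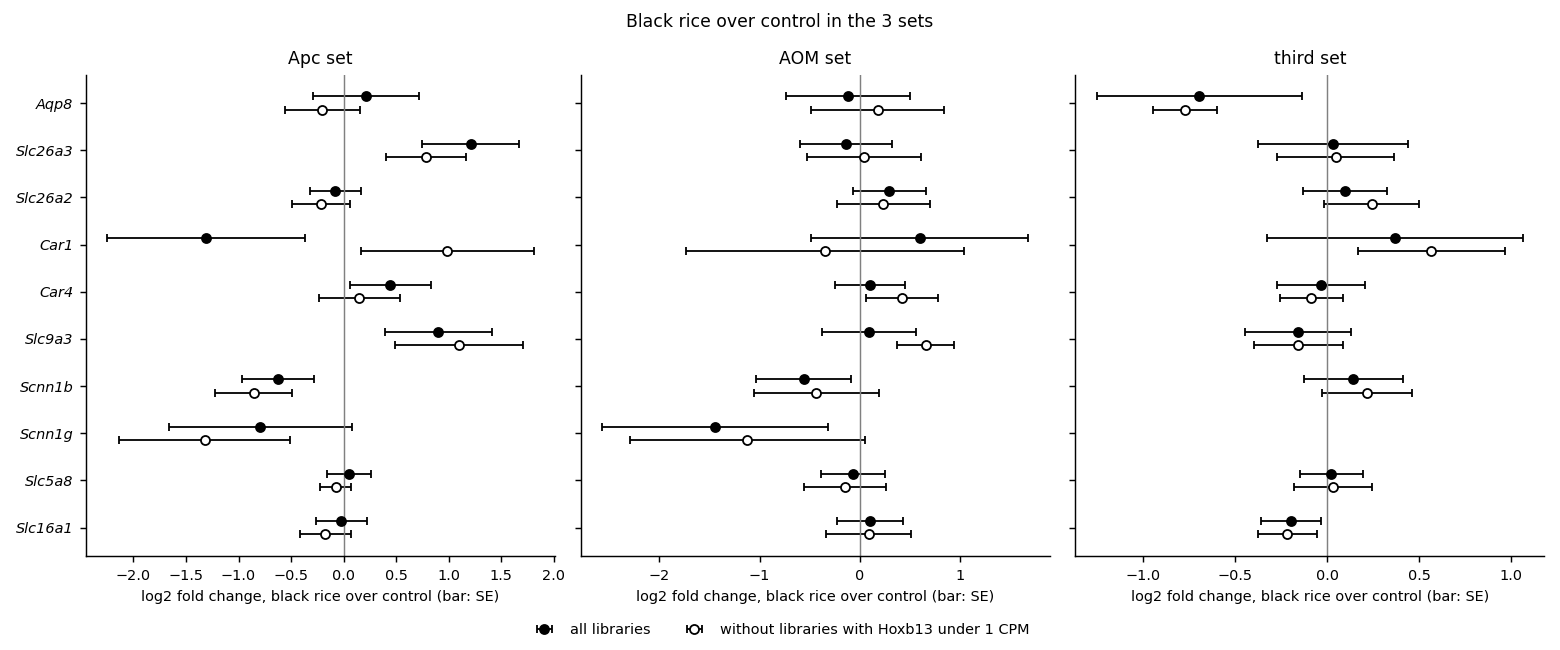
Log2 fold change of black rice over control for each transport gene in the Apc set, the AOM set and the third set, with SE bars, from all libraries (filled) and without the libraries with Hoxb13 under 1 CPM (open). The open AOM points keep only replicate 3 of the black rice M libraries. In the Apc set Car1 is at -1.31 with all libraries and at 0.99 without those libraries, and in the third set Aqp8 is at -0.70 with all libraries and at -0.77, with a narrower bar, without them.

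Control libraries of the AOM and Apc sets were compared in a joint fit, where set, model and any difference in handling cannot be told apart. Of 23423 genes 28.6% passed the threshold and 40.7% had an unadjusted p under 0.05, against 0 and 1 of the 10 transport genes. Slc26a2 averaged 389.9 ± 141 CPM in AOM control and 680.5 ± 236 CPM in Apc control libraries (SD, n = 6 each), a log2 fold change of -0.65 (SE 0.30, adjusted p = 0.118 with edgeR). Without AOM control M replicate 1, which had 653 CPM, it was -0.90 (SE 0.30, adjusted p = 0.0336) and passed. Slc5a8 averaged 140.5 ± 41.7 CPM in AOM control and 213 ± 68.1 CPM in Apc control libraries, a log2 fold change of -0.51 (SE 0.29), and Car4 435 ± 147 and 646 ± 331 CPM in the same order, -0.44 (SE 0.39). For Slc26a2, Slc5a8 and Car4, no AOM control library lay above the mean of the Apc control libraries with its code.

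Genes of the pathway lists did pass in that comparison, in shares to be read against the 28.6% of all genes that passed. Markers of other cell types moved too. Of 10 smooth muscle genes 7 rose, and the list summed to 4655 to 12888 CPM in AOM control and 2724 to 3977 CPM in Apc control libraries, without overlap. Of 9 fibroblast genes 4 rose, of 16 epithelial identity genes 4 rose and 1 fell, and of 12 immune genes 4 fell, with sums of 154 to 816 CPM in AOM control and 775 to 2139 CPM in Apc control libraries. No marker of these lists was at 0, and their part in the values below was not tested beyond the covariate fits. Of the 16 aldosterone and glucocorticoid genes 5 fell and none rose, and 2 of 16 passed with the replicate block. The log2 fold change was -1.15 (SE 0.22) for Tsc22d3, -1.45 (SE 0.37) for Sgk1, -0.77 (SE 0.21) for the glucocorticoid receptor Nr3c1, and -1.65 (SE 0.46) and -0.91 (SE 0.31) for the glucocorticoid-induced Zbtb16 and Fkbp5. Of 18 butyrate genes 2 rose and 2 fell, and 2 in all passed with all 12 AOM libraries. The lactate exporter Slc16a3 had 2.04 (SE 0.46), with 35.0 ± 6.89 CPM in AOM control and 9.51 ± 7.11 CPM in Apc control libraries, and Bsg, the chaperone of MCT1, had 0.52 (SE 0.18). Acsm3, an enzyme that activates butyrate, had -1.55 (SE 0.43) and the oxidation enzyme Echs1 -0.56 (SE 0.13).

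Of 38 other ion and water transport genes 5 rose and 4 fell. Of these 38, 3 passed with the replicate block, 4 with the smooth muscle covariate, 4 with all 12 AOM libraries and 5 with the epithelial covariate. Those of smallest p were the chloride channel Cftr, with -0.72 (SE 0.17), the sodium pump subunit Atp1b1, with -0.71 (SE 0.17), Car2, the cytosolic carbonic anhydrase, with -1.07 (SE 0.28), and the phosphate carrier Slc34a2, with -1.86 (SE 0.52). Clca4b and Clca4a, of the calcium-activated chloride channel regulator family, had 4.48 (SE 1.14) and 2.15 (SE 0.72). Among the transcription factors Klf5 rose by 0.67 (SE 0.15) and Hnf4g fell by 0.92 (SE 0.21). The adjusted p-values of these genes lay at or below 0.0357 with edgeR. The median fold change was -0.19 for the aldosterone list, -0.30 for the butyrate list, -0.28 for the ion and water list and 0.08 for the transcription factors, beside -0.01 over all genes.

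The diet effect in the AOM set minus that in the Apc set differed past the threshold for no gene, 0% of all, with 5.3% at an unadjusted p under 0.05, against 0 of 10 transport genes. It was -1.33 (SE 0.72, adjusted p = 0.861) for Slc26a3, where the Apc fold change was 1.21 and the AOM fold change -0.14. For Car1 it was 1.94 (SE 1.58), and -1.29 without the libraries low in Hoxb13. The latter fit keeps only replicate 3 of the AOM black rice M libraries.

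Across the 18 Apc libraries the genes most like the mean z score of the transport genes, among 14641 genes with a symbol and a mean log2 CPM of at least 1, were Mcl1 (r = 0.93), Slc15a1 (0.92), Abat (0.91), Prdx6 (0.91) and Gjb5 (0.91). The genes most like Aqp8 alone were Slc15a1 (r = 0.95), Nt5e (0.93) and Slc6a8 (0.92). Car1 stood outside, with r of 0.92 to the mean of 12 small intestinal enterocyte genes and 0.91 to that of 15 surface colonocyte genes. In the AOM set Car1 had r of 0.85 and 0.95 with the same lists. The small intestinal list summed to 284 to 788 CPM in black rice, 238 to 760 CPM in control and 261 to 748 CPM in WT libraries of the Apc set, with at most 1 marker at 0 in a library.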

How the data were processed

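Total RNA from mouse intestinal tract was sequenced as oligo(dT)-selected mRNA, per the labels' protocols. The authors deposited 3 tables of whole-number read counts per Ensembl gene for 38 libraries. Reads were aligned to GRCm39 with tools that include HISAT2, per the submitters' processing notes, whose versions are not given in the sources used here, and 2 tables were counted with featureCounts 2.0.1 over exons of Ensembl 104, per the file headers. The headers name no strand option, so antisense transcripts cannot be told apart. No pair of libraries held identical values and 0 columns were unmapped.

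CPM used all reads of a library. Depth was 44.8 to 61.9 M reads in the Apc set, 37.9 to 55.1 M in the 11 AOM libraries used and 66.6 to 91.1 M in the third set, and limits given for 0 reads (3 counts) cover counting error only. Exon lengths came from a GRCm38 annotation. Tests used edgeR 4.0.16 (quasi-likelihood, TMM, filterByExpr, Benjamini-Hochberg adjustment over all genes, threshold 0.05) in R 4.3.3, in 1 fit per table over its groups, or 1 joint fit of Apc and AOM. The comparisons over both codes average the F and M differences. DESeq2 1.42.0, limma 3.58.1 (voom), RLE factors, no filter, covariates for epithelial and smooth muscle genes, the compared groups only, the replicate number and leaving out each library were alternatives. A distal colon covariate and leaving out libraries with Hoxb13 under 1 CPM were added after seeing the data. Fits with edgeR, limma-voom and DESeq2 were tested on simulated counts, for black rice against control in each set and for AOM against Apc controls. The other comparisons, the other alternatives, the correlations and the motif search were not simulated. AOM black rice F replicate 3 was left out because it held liver transcripts.

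The 10 genes and all lists were chosen with earlier results of these data known. Named beside them were, per pathway list, genes past the threshold (at most 6 by smallest p) or, where none passed, the 2 of smallest p, and the genes with the highest correlation to them. Some genes that this rule names are not reported here. Deviations of same-numbered libraries from their group means were correlated at -0.63 to 0.53 in the Apc set. The range was -0.36 to 0.40 in the AOM set and -0.69 to 0.57 in the third set. Mean r was -0.04, 0.10 and -0.24 in that order, beside 0.02, -0.05 and 0.08 for other pairs. With the replicate number as a block, 203 of 21895 genes passed in the AOM interaction with edgeR, and 0 passed without it. For AOM against Apc controls 5151 genes passed with the block and 6706 without it. Whether the number marks a shared batch was not tested further.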

Additional observations from a re-analysis of the deposited data

Results flagged for a closer look

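In the third set, control replicate 4 lay far from the 3 other control libraries in 3 of the transport genes, by Dixon's criterion for 4 samples. It had 101 CPM of Aqp8, and the others had 613 to 662 CPM. It had 15034 CPM of Car1, and the others had 2659 to 3894 CPM. It had 0.133 CPM of Scnn1g, from 10 reads, and the others had 0.0329 to 0.0451 CPM, from 3 to 4 reads. Such a value was found in 3 of 20 groups of gene and arm examined, all 3 from this library. Chance gives about 1 in 20 for a single group, but the genes share libraries, so the count cannot be compared with that rate. The same library had 0.464 CPM of Hoxb13, and the 3 others had 8.49 to 22.9 CPM; the part of colon position in these values was not tested.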

How the results depend on the processing

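No transport gene passed the threshold in any of the 17 comparisons under RLE factors, no filter, limma-voom, the tissue and position covariates, the compared groups only or without the libraries of low Hoxb13. DESeq2 passed 1 gene, Scnn1b, for black rice against control among Apc M libraries and 1, Scnn1b, in the Apc interaction. Leaving out single libraries gave counts from 0 to 1 for AOM against Apc controls, where Slc26a2 passed without AOM control M replicate 1, and 0 elsewhere. Of 69 fold changes of single genes given, 64 kept their direction in every alternative run, and 5 turned in 1 alternative each. Car1 turned to 0.99 for Apc diet and to -1.29 for AOM minus Apc diet without the libraries of low Hoxb13. Slc9a3 turned to 0.47 for AOM F against M with the epithelial covariate and to -0.029 for Apc diet with the smooth muscle covariate. Sgk1 turned to 0.0083 in the third set with the epithelial covariate. The causes were not tested. With the replicate block, which the labels do not support as a pairing, 0 transport genes passed in all 17 comparisons. In 49 recomputed values of list genes between AOM and Apc controls the threshold was no longer passed. Calls of list genes were gained under DESeq2 (Sgk1 and Hsd11b2 among Apc M libraries, Sgk1 in the Apc interaction, Elf3 in the third set), without the low-count filter and without WT M replicate 1 (both Sgk1 among Apc M libraries). Scnn1g, at 1 to 10 reads per third-set library, could not be tested there.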

Other observations

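The left-out library, AOM black rice F replicate 3, held few reads of the transport genes. It had 425 reads of Slc16a1, which liver also expresses, 147 of Aqp8, 91 of Car1, 69 of Slc26a2, 36 of Car4, 25 of Slc5a8, 21 of Slc26a3, 2 of Scnn1g, 1 of Slc9a3 and 0 of Scnn1b. The epithelial identity genes summed to 694 CPM in it, and to at least 12366 CPM in the 11 other AOM libraries.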
